A study of Glycine max with 6 samples.

Results

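On the soybean gene array used here, 64 of 66195 probes had a drought-stressed signal at least 5 log2 units, or 32-fold, above the well-watered signal. They were chosen from the deposited log2 values by 2 conditions. The mean of the 3 drought-stressed V6 leaves had to exceed the mean of the 3 well-watered V6 leaves by 5 or more, and every drought-stressed value had to lie above every well-watered value. The rule found 70 probes, and 6 gene IDs (Glyma01g24530, Glyma01g44930, Glyma02g26160, Glyma18g50870, Glyma06g15990 and Glyma12g35000) were set aside and are not described here. The second condition removed no probe that met the first. Over the whole array, 14.4% of probes had all drought-stressed values above all well-watered values, and nothing is read from the 64 of 64, since the rule required it. Because the rule used the contrast of drought-stressed over well-watered leaves, the differences of the 64 probes are given as a description, with no test.

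The study grew soybean cultivar Williams 82, whose genome is the reference for the species, in pots in a greenhouse. The drought-stressed group was plants 1, 2 and 4. Their watering stopped at V6, a late vegetative stage, and they received no water for 6 days, when soil moisture had dropped to 5%. The study describes the plants on that day as beginning to bloom, and it names the leaves after V6. The well-watered group was plants 14, 15 and 16, sampled on the same day, which were watered as usual. Each plant gave 1 array of total RNA from trifoliate 4. Several plants shared a pot, the sources used here do not say which, and more plants were grown per treatment than were profiled. Plants that shared a pot may not be independent, and the tests treat them as if they were. Each p-value sets the group difference against the spread between these leaves, which limma moderates by the spread over all probes. Part of that spread may be technical. The labels name no transgene or mutation. All 6 leaves carry the same label for tissue. That label could not be checked against marker genes, because the values hold no absolute level.

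When soil dries, leaf cells lose turgor and accumulate abscisic acid, a hormone that closes stomata and, through kinases and transcription factors, switches on genes whose products protect membranes and proteins, adjust solutes and remodel the cell wall. Soybean descends from ancestors whose genomes were duplicated more than once, and it also holds many tandem copies, genes of one family that stand side by side on a chromosome. A Glyma gene ID carries the number of the chromosome and then a number that follows the order of the genes along it, so that neighbours can be read from the IDs.

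The drought-stressed arrays were close in overall level, and the well-watered arrays were less so. The array medians lay between -0.029 and -0.0042 for drought-stressed leaves. For well-watered leaves they ran from -0.097 in plant 16 to 0.13 in plant 14, and plant 16 was the lowest well-watered leaf in 55.9% of all probes. Array weights estimated by limma were 0.62, 2.13 and 0.40 in plants 14, 15 and 16, and between 1.04 and 1.67 in drought-stressed leaves. The leaf values below keep this shift between plants 14 and 16. Over all probes, limma called 2864 probes (4.33%) higher and 3401 (5.14%) lower in drought-stressed leaves, at a fold of at least 2 and a Benjamini-Hochberg adjusted p under 0.05. By the methods' t-test, the same thresholds gave 1808 probes (2.73%) called higher and 2000 (3.02%) lower.

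The differences of the 64 probes reached 9.20 log2 units, with a lowest value of 5.02 and a median of 5.88, which are folds of 590, 32.4 and 58.8. The probes thinned out towards the large differences. A difference of at least 8 was found for 4 probes, 7 to 8 for 9 probes, 6 to 7 for 16, 5.5 to 6 for 16 and 5 to 5.5 for 19. The space between the lowest drought-stressed and the highest well-watered leaf was 5.11 log2 units at the median of the 64 probes, and it ran between 3.06 at Glyma20g34670 and 8.31 at Glyma05g05430. Each deposited value is relative to that probe's median over the 6 arrays, so a value near 4 in 1 group stands opposite a value near -4 in the other, and signals of different genes cannot be ranked by abundance. For the same reason the lowest drought-stressed value and the highest well-watered value of each of these probes are equal in size and opposite in sign.

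**Figure D1:**
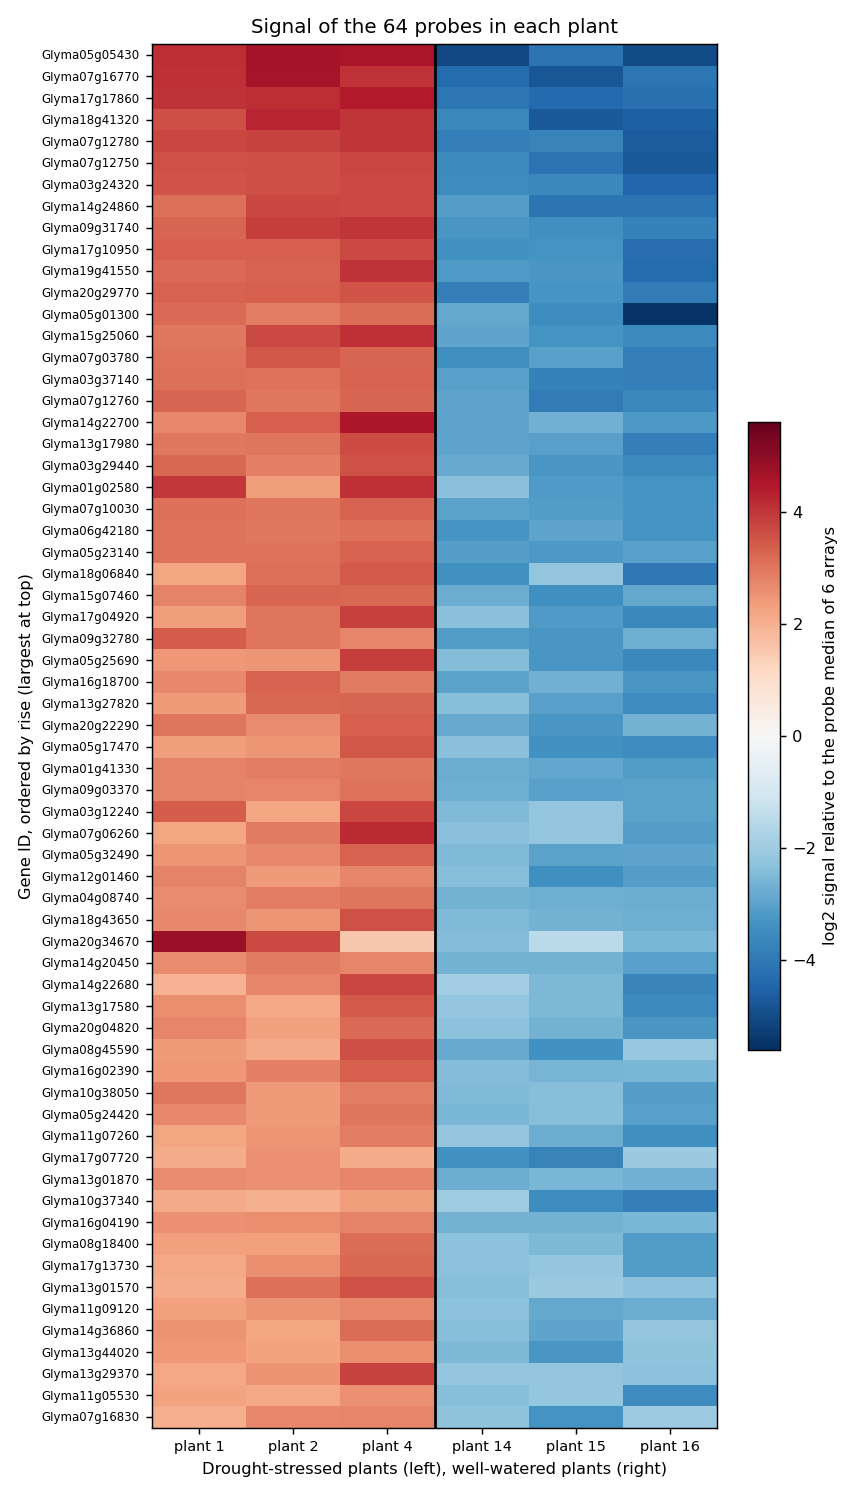
Deposited log2 signal of the 64 probes (rows, ordered by the drought-stressed minus well-watered difference, largest at the top) in each plant (columns, drought-stressed plants 1, 2 and 4 on the left and well-watered plants 14, 15 and 16 on the right), relative to the probe's median over 6 arrays. The 3 left columns are above 0 and the 3 right columns below 0 in every row, and the palest drought-stressed cell is Glyma20g34670 in plant 4, at 1.53.

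Glyma05g05430 on chromosome 5 had the largest difference of the 64. Its log2 signal was 4.15, 4.67 and 4.57 in drought-stressed plants 1, 2 and 4, against -5.07, -4.15 and -5.0 in well-watered plants 14, 15 and 16. The groups were 8.31 units apart at their nearest leaves, and the difference of the means was 9.20, a fold of 590. Glyma07g16770 on chromosome 7 had 4.08, 4.64 and 4.07 in drought-stressed plants, against -4.30, -4.80 and -4.07 in well-watered plants. Plants 1 and 4 were level and plant 2 stood above them by 0.56 or more, for a difference of 8.65 (fold 401). Glyma17g17860 on chromosome 17 had 4.06, 4.15 and 4.45 in drought-stressed plants, against -4.06, -4.33 and -4.18 in well-watered plants. Its difference was 8.41 (fold 341), and its leaves lay close together in both groups, with SDs of 0.20 and 0.14 (n = 3 each). Glyma18g41320 on chromosome 18 had 3.61, 4.28 and 3.99 in drought-stressed plants, against -3.61, -4.70 and -4.56 in well-watered plants. Drought-stressed plant 1 and well-watered plant 14 were the leaves nearest the other group, and the difference was 8.25 (fold 304).

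Differences between 7 and 8 were found for 9 probes. Glyma07g12780 had 3.73, 3.79 and 4.01 in drought-stressed plants, against -3.85, -3.73 and -4.68 in well-watered plants (difference 7.93). Glyma07g12750, 3 places away from it on chromosome 7, had 3.55, 3.59 and 3.73 in drought-stressed plants, against -3.55, -4.13 and -4.70 in well-watered plants (difference 7.75). In both, the drought-stressed leaves were tighter than the well-watered leaves, and plant 16 was the lowest. Glyma03g24320 had 3.50, 3.59 and 3.69 in drought-stressed plants, against -3.50, -3.61 and -4.43 in well-watered plants (difference 7.45). It shared the low value of plant 16. Glyma14g24860 had 3.10, 3.74 and 3.70 in drought-stressed plants, against -3.10, -4.10 and -4.12 in well-watered plants (difference 7.28). Here drought-stressed plant 1 was the low leaf and well-watered plant 14 the high one. Glyma09g31740 had 3.27, 3.85 and 4.02 in drought-stressed plants, against -3.27, -3.43 and -3.80 in well-watered plants (difference 7.22). Drought-stressed plant 1 was again the lowest of its group.

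Glyma17g10950 had 3.36, 3.36 and 3.68 in drought-stressed plants, against -3.41, -3.36 and -4.28 in well-watered plants (difference 7.15). Glyma19g41550, the member on chromosome 19, had 3.16, 3.31 and 4.03 in drought-stressed plants, against -3.16, -3.25 and -4.31 in well-watered plants (difference 7.08). In both, plant 4 was the highest drought-stressed leaf and plant 16 the lowest well-watered leaf. Glyma20g29770 had 3.29, 3.36 and 3.53 in drought-stressed plants, against -3.81, -3.29 and -3.90 in well-watered plants (difference 7.06). The drought-stressed leaves of this gene lay within 0.25 of each other. Glyma05g01300 had 3.15, 2.89 and 3.11 in drought-stressed plants, against -2.89, -3.48 and -5.51 in well-watered plants (difference 7.01). The value of plant 16 was the lowest of any of the 64 probes in any leaf, and without that plant the difference of Glyma05g01300 was 6.23.

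Among the 16 probes between 6 and 7, Glyma15g25060 had 2.97, 3.70 and 4.10 in drought-stressed plants, against -2.97, -3.36 and -3.57 in well-watered plants (difference 6.89). Glyma07g03780 had 3.06, 3.47 and 3.28 in drought-stressed plants, against -3.42, -3.06 and -3.88 in well-watered plants (difference 6.72). The groups of both were about 6 units apart at their nearest leaves. Glyma03g37140 had 3.06, 3.04 and 3.28 in drought-stressed plants, against -3.04, -3.79 and -3.87 in well-watered plants (difference 6.70). Glyma07g12760 had 3.24, 2.94 and 3.28 in drought-stressed plants, against -2.94, -3.93 and -3.61 in well-watered plants (difference 6.65). In both of these, plant 14 was the highest well-watered leaf. Glyma14g22700 had 2.70, 3.34 and 4.52 in drought-stressed plants, against -2.93, -2.70 and -3.20 in well-watered plants (difference 6.47). Its drought-stressed leaves spread over 1.82 units with plant 4 at the top, while its well-watered leaves lay within 0.50. Glyma13g17980 had 2.93, 2.99 and 3.66 in drought-stressed plants, against -2.93, -3.03 and -3.84 in well-watered plants (difference 6.46). Glyma03g29440 had 3.22, 2.83 and 3.57 in drought-stressed plants, against -2.83, -3.25 and -3.56 in well-watered plants (difference 6.42). Plant 4 was the highest drought-stressed leaf and plant 16 the lowest well-watered leaf of both.

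Glyma07g10030 had 3.08, 3.01 and 3.30 in drought-stressed plants, against -3.01, -3.13 and -3.30 in well-watered plants (difference 6.28). Glyma06g42180, the member on chromosome 6, had 3.05, 2.96 and 3.08 in drought-stressed plants, against -3.31, -2.96 and -3.36 in well-watered plants (difference 6.24). Glyma05g23140 had 3.04, 3.05 and 3.29 in drought-stressed plants, against -3.10, -3.20 and -3.04 in well-watered plants (difference 6.24). These 3 genes were among the most even of the 64, with no SD over 0.22 in either group. Glyma18g06840 had 2.22, 3.10 and 3.45 in drought-stressed plants, against -3.39, -2.22 and -4.0 in well-watered plants (difference 6.12). Its leaves were uneven in both groups, with SDs of 0.63 and 0.91 (n = 3 each).

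A description was at hand for 2 of the 64 genes, both on chromosome 1, from the first part of the study's annotation table. Glyma01g02580 is described there as moderately similar to ELI3-2 of Arabidopsis and highly similar to a second entry, MTDH. ELI3-2 is named for its activation by elicitors, which are molecules that set off plant defence. ELI3 proteins belong to the cinnamyl alcohol dehydrogenase family, enzymes that reduce aldehydes to alcohols. Glyma01g02580 had 3.95, 2.33 and 4.07 in drought-stressed plants, against -2.33, -3.17 and -3.37 in well-watered plants, for a difference of 6.41. Drought-stressed plant 2 was lower than the other 2 drought-stressed leaves by 1.62 or more, yet 4.67 above the nearest well-watered leaf. The gene next to it, Glyma01g02570, is described as similar to ELI3-1, the sister gene in Arabidopsis. Its log2 signal was -0.16, -0.39 and -0.34 in drought-stressed plants, against 0.38, 0.16 and 0.32 in well-watered plants. The groups did not overlap, but the difference of -0.58 (SE 0.16, limma adjusted p 0.034) was under a fold of 2 and was not called.

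Glyma01g41330 is described as similar to EXLB1 of Arabidopsis, an expansin-like protein. Expansins loosen the cell wall so that a cell can enlarge, whereas the activity of the expansin-like B group is less well known. The log2 signal of Glyma01g41330 was 2.76, 2.88 and 2.96 in drought-stressed plants, against -2.76, -2.91 and -3.11 in well-watered plants, for a difference of 5.80 with SDs of 0.097 and 0.18 (n = 3 each). The 1849 annotated genes used, all of them on chromosome 1, held 9 described as expansins or xyloglucan enzymes. Glyma01g41330 was the single one called higher, but the rule required its rise, so nothing is read from that call. Of the other 8, 0 were called higher and 0 lower, beside 4.33% and 5.14% of all probes. So few genes cannot show a difference from those shares. At an unadjusted p under 0.05, limma picked 2 of the other 8, and the methods' t-test called 0 of the 8. The share of all probes under that unadjusted p was not counted, so nothing is read from the 2. The median difference of those 8 was -0.06, against -0.05 over all probes. Glyma01g41050 and Glyma01g35070, also described as similar to EXLB1, had differences of 0.16 (SE 0.31, limma adjusted p 0.84) and 0.42 (SE 0.24, limma adjusted p 0.33). Glyma01g16140, a beta-expansin match, had the largest difference of the 8 above 0, at 0.59 (SE 0.18, limma adjusted p 0.047), under the fold threshold. Glyma01g40460, a match to a xyloglucan endotransglycosylase, an enzyme that cuts and rejoins wall polymers, had the lowest, at -0.47 (SE 0.20, limma adjusted p 0.16).

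In the deposited values, the spread among leaves of a group was wider in the 64 probes than in the array as a whole, and how much wider depended on the scaling. The median SD over 3 plants was 0.33 in drought-stressed leaves and 0.44 in well-watered leaves, against 0.18 and 0.24 over all probes. After centring each array on its median it was 0.33 and 0.38, against 0.18 and 0.22 over all probes. After quantile normalization, which gives every array the same distribution of values, it was 0.24 in drought-stressed leaves and 0.29 in well-watered leaves, against 0.19 and 0.20 over all probes. The 64 probes lie at the extremes of each array, where quantile normalization evens out the values, so some narrowing was built in. In the deposited values, probes called higher by 3 to 5 log2 units, of which there were 300, had median SDs of 0.31 in drought-stressed leaves and 0.35 in well-watered leaves. The 80 probes called lower by 4 or more had 0.34 and 0.32, so that a wide spread was also found among large falls. The drought-stressed SD was the larger one in 29 of the 64 probes (45.3%), against 36.0% of all probes. Other changed probes had similar shares, with 41.3% of those rising by 3 to 5, 44.5% of those called higher and 43.7% of those called lower. For the falls of 4 or more the share was 52.5%. After median centring the drought-stressed SD was the larger in 33 of the 64 (51.56%), against 41.0% of all probes. After quantile normalization it was the larger in 25 (39.1%), against 47.6% of all probes. That scaling evens out extreme values in both groups. As the direction changed with the scaling, none of these shares is read as a trait of the 64. For 41 of the 64, the difference between the groups was at least 10 times the larger SD, and the lowest such ratio was 3.29, at Glyma20g34670. The rule required a large difference, so high ratios were largely built in and nothing is read from this count.

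Within the drought-stressed group, plant 4 was the highest leaf for 50 of the 64 probes (78.1%), plant 2 for 9 and plant 1 for 5. Over all probes plant 4 was highest in 32.1%. It was also the highest in 71.0% of the probes rising by 3 to 5, and the lowest in 48 of the 80 probes falling by 4 or more. The margin was mostly small. Plant 4 stood above the next leaf by at least 0.5 in 17 probes and by at least 1 in 7. Centring each array on its median left the count among the 64 at 50. After quantile normalization, plant 4 was the highest leaf for 18 of the 64 probes (28.1%) and the lowest for 19 of the 80 falling probes. That scaling gives all arrays the same largest and smallest values, where these probes lie, and some became equal in 2 plants. It therefore cannot decide the order of the plants at these probes, and nothing is read from its counts. In the well-watered group, plant 16 was the lowest leaf for 42 probes (65.6%), against 55.9% of all probes, and plant 14 the highest for 36 (56.2%), against 49.7% of all probes. After median centring these counts were 33 (51.56%) and 28 (43.75%), against 37.82% and 32.62% of all probes. After quantile normalization they were 20 and 20 (31.2% each), against 36.5% and 32.2% of all probes, with the same limit.

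**Figure D2:**
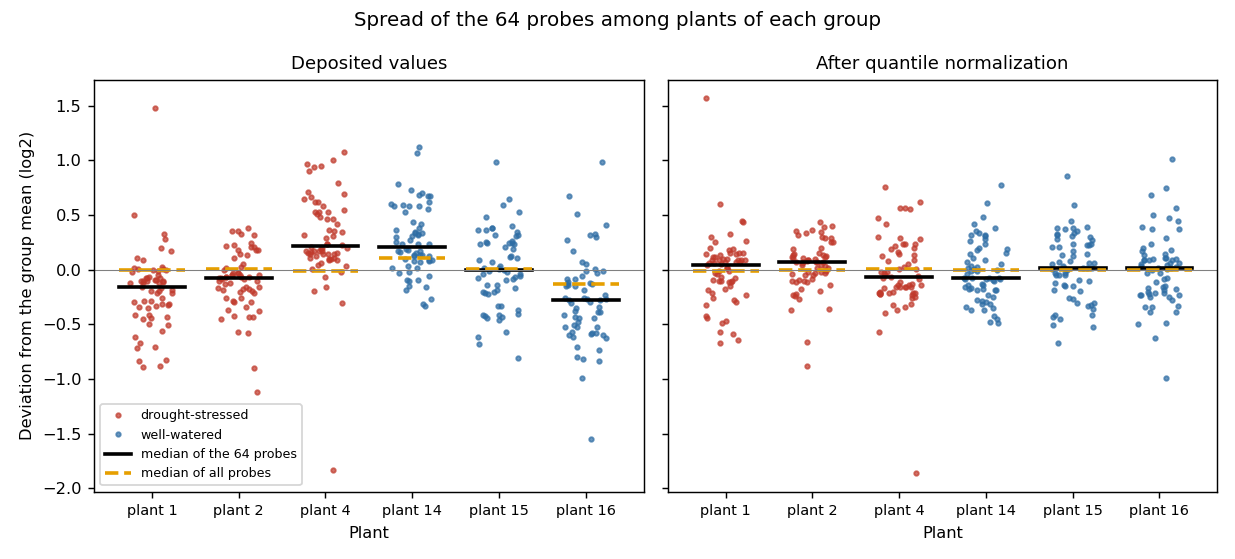
Deviation of each of the 64 probes (points) from its group mean in log2 units, for drought-stressed plants 1, 2 and 4 and well-watered plants 14, 15 and 16, in the deposited values (left) and after quantile normalization (right), with the median of the 64 probes as a black line and that of all probes as a dashed line. In the deposited values the medians of the 64 probes were -0.16, -0.08 and 0.22 in plants 1, 2 and 4 and 0.21, -0.0001 and -0.28 in plants 14, 15 and 16, and after quantile normalization each lay between -0.08 and 0.07.

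Glyma20g34670 had the widest drought-stressed leaves of the 64, with 4.83, 3.71 and 1.53 in drought-stressed plants, against -2.44, -1.53 and -2.56 in well-watered plants (SDs 1.68 and 0.56). Plant 4 was its lowest drought-stressed leaf by 2.18 units, the opposite of the usual order. Glyma07g06260 came next, with 2.20, 2.91 and 4.17 in drought-stressed plants, against -2.36, -2.20 and -3.07 in well-watered plants (SDs 1.00 and 0.46). Here plant 4 was the highest by 1.27. The next widest was Glyma01g02580, the ELI3-2 match, with an SD of 0.97 among drought-stressed leaves. The narrowest drought-stressed SDs were 0.058 at Glyma06g42180, 0.087 at Glyma13g01870 and 0.094 at Glyma03g24320. Glyma13g01870 had 2.63, 2.56 and 2.73 in drought-stressed plants, against -2.79, -2.56 and -2.69 in well-watered plants (difference 5.32). In this gene both groups were even.

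Among well-watered leaves the widest SDs were 1.38 at Glyma05g01300, 0.99 at Glyma10g37340 and 0.91 at Glyma18g06840. Glyma10g37340 had 2.13, 1.98 and 2.35 in drought-stressed plants, against -1.98, -3.52 and -3.81 in well-watered plants (difference 5.26). Well-watered plant 14 stood 1.54 above the next leaf, while the drought-stressed leaves lay within 0.37. The narrowest were 0.047 at Glyma16g04190, 0.065 at Glyma04g08740 and 0.077 at Glyma05g23140. Glyma16g04190 had 2.55, 2.60 and 2.80 in drought-stressed plants, against -2.63, -2.63 and -2.55 in well-watered plants (difference 5.25). Glyma04g08740, the member on chromosome 4, had 2.64, 2.88 and 2.98 in drought-stressed plants, against -2.64, -2.72 and -2.77 in well-watered plants (difference 5.54). Both SDs were under 0.3 in 11 of the 64 probes, these included.

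At the threshold there was no break in the values. The smallest differences inside it were 5.02 at Glyma07g16830, 5.02 at Glyma11g05530, 5.04 at Glyma13g29370, 5.10 at Glyma13g44020 and 5.13 at Glyma14g36860. The largest outside it were 4.99 at Glyma05g36850, 4.96 at Glyma08g33510, 4.93 at Glyma06g46450, 4.92 at Glyma07g19060 and 4.89 at Glyma11g33940. The probes on both sides looked alike leaf by leaf. Glyma11g05530, just inside, had 2.25, 2.17 and 2.57 in drought-stressed plants, against -2.39, -2.17 and -3.53 in well-watered plants. Glyma05g36850, just outside, had 2.28, 1.97 and 3.08 in drought-stressed plants, against -2.25, -1.97 and -3.43 in well-watered plants. With a threshold of 4.5 the rule would hold 93 probes, with 5.5 it would hold 45, and after quantile normalization it held 52, all of them among the 64.

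The 64 genes lay on 19 of the 20 chromosomes, and none on the scaffolds outside them, which carry 428 probes. Chromosome 7 held 8, chromosomes 5 and 13 held 7 each, and chromosomes 14 and 17 held 5 each. Per 1000 probes this was 2.44 on chromosomes 5 and 7, against 0.967 over the array. Chromosome 2 held none, since its one probe that met the rule was among the 6 set aside. At a fold of 2, between 3.61% (chromosome 18) and 5.95% (chromosome 13) of a chromosome's probes were called higher. Those calls numbered 110 to 236 per chromosome, whereas counts of 0 to 8 genes vary more by their size. On chromosome 7, Glyma07g12750, Glyma07g12760, Glyma07g12780, Glyma07g16770 and Glyma07g16830 lay in 2 short stretches. The 6 gene IDs set aside also lower the counts on chromosomes 1, 6, 12 and 18. Whether the 64 genes concentrate on any chromosome was not tested.

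Several genes not given leaf by leaf above complete the list. On chromosome 5, Glyma05g25690 (difference 6.05), Glyma05g17470 (5.84), Glyma05g32490 (5.61) and Glyma05g24420 (5.35) joined Glyma05g05430, Glyma05g01300 and Glyma05g23140. In Glyma05g25690, plant 4 stood 1.40 above the next drought-stressed leaf. On chromosome 13, Glyma13g27820 (5.94), Glyma13g17580 (5.5), Glyma13g01570 (5.15) and Glyma13g44020 (5.10) joined Glyma13g17980, Glyma13g01870 and Glyma13g29370. On chromosome 17, Glyma17g04920 (6.09), Glyma17g07720 (5.33) and Glyma17g13730 (5.19) joined Glyma17g17860 and Glyma17g10950. On chromosome 14, Glyma14g20450 (5.53) and Glyma14g36860 (5.13) lay outside the cluster described next. On chromosomes 3, 8, 9 and 10, the others were Glyma03g12240 (5.67), Glyma08g45590 (5.47), Glyma08g18400 (5.21), Glyma09g32780 (6.08), Glyma09g03370 (5.78) and Glyma10g38050 (5.41). On chromosomes 11, 12, 15 and 16 they were Glyma11g07260 (5.34), Glyma11g09120 (5.15), Glyma12g01460 (5.59), Glyma15g07460 (6.12), Glyma16g18700 (5.95) and Glyma16g02390 (5.42). On chromosomes 18 and 20 they were Glyma18g43650 (5.54), Glyma20g22290 (5.92) and Glyma20g04820 (5.5). Drought-stressed signals of the genes given with a difference here lay between 2.06 and 3.88 in all 3 plants, and their well-watered signals between -3.75 and -2.06.

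Some of the 64 genes stood side by side. Glyma07g12750, Glyma07g12760 and Glyma07g12780 lay within 4 consecutive gene IDs on chromosome 7, with differences of 7.75, 6.65 and 7.93. The gene between them, Glyma07g12770, had 0.94, 0.82 and 1.31 in drought-stressed plants, against -0.86, -0.82 and -1.29 in well-watered plants. Its difference of 2.02 (SE 0.20, limma adjusted p 8.1e-05) was called, but it was smaller than that of the genes on its sides by more than 4 units. The 5 gene IDs on each side of the cluster had differences between -0.31 and 0.11, and were not called.

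On chromosome 14, Glyma14g22680 had 1.93, 2.74 and 3.75 in drought-stressed plants, against -1.93, -2.50 and -3.70 in well-watered plants (difference 5.51). It lay 2 places from Glyma14g22700, whose difference was 6.47. Glyma14g22690 between them had 0.98, 1.46 and 3.15 in drought-stressed plants, against -0.98, -1.68 and -1.44 in well-watered plants. Its difference was 3.23 (SE 0.46, limma adjusted p 8.1e-04). In the deposited values of the 3 genes the drought-stressed leaves had 1 order, with plant 4 highest and plant 1 lowest, and the 5 gene IDs on each side had differences between -0.59 and 0.44 that were not called.

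Glyma07g16770 and Glyma07g16830, with differences of 8.65 and 5.02, were 6 places apart on chromosome 7, and this pair was picked out after its values were seen. Glyma07g16830 had 2.03, 2.69 and 2.72 in drought-stressed plants, against -2.24, -3.34 and -2.03 in well-watered plants. The 5 gene IDs between them, Glyma07g16780 to Glyma07g16820, had differences between -0.25 and -0.00078 and were not called. The 2 gene IDs on the outer side of each were called higher. On the side of Glyma07g16770 these were Glyma07g16760 (difference 2.35, SE 0.51, limma adjusted p 0.01) and Glyma07g16750 (1.90, SE 0.26). On the side of Glyma07g16830 they were Glyma07g16840 (2.19, SE 0.34, limma adjusted p 0.0013) and Glyma07g16850 (1.29, SE 0.18).

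Single genes of the 64 also stood in runs of smaller rises, and 2 on chromosome 13 are shown because 4 of their 10 nearest gene IDs were called higher, the most of any of the 64. Glyma13g29370 had 2.14, 2.52 and 3.78 in drought-stressed plants, against -2.14, -2.22 and -2.32 in well-watered plants (difference 5.04). Before it along the chromosome, Glyma13g29350 had a difference of 3.67 (SE 0.18) and Glyma13g29360 one of 2.80 (SE 0.25). After it, Glyma13g29390 had 1.90 (SE 0.33) and Glyma13g29400 had 1.56 (SE 0.16), while Glyma13g29380, directly beside it, had 0.49 and was not called. Glyma13g01570 had 2.06, 3.07 and 3.56 in drought-stressed plants, against -2.40, -2.06 and -2.28 in well-watered plants (difference 5.15). Around it, Glyma13g01550 (1.70, SE 0.17), Glyma13g01560 (2.27, SE 0.22), Glyma13g01580 (1.51, SE 0.25) and Glyma13g01620 (2.02, SE 0.21) were called higher. Glyma13g01530, 4 places before it, was called lower at -1.79 (SE 0.16, limma adjusted p 3.7e-05).

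**Figure D3:**
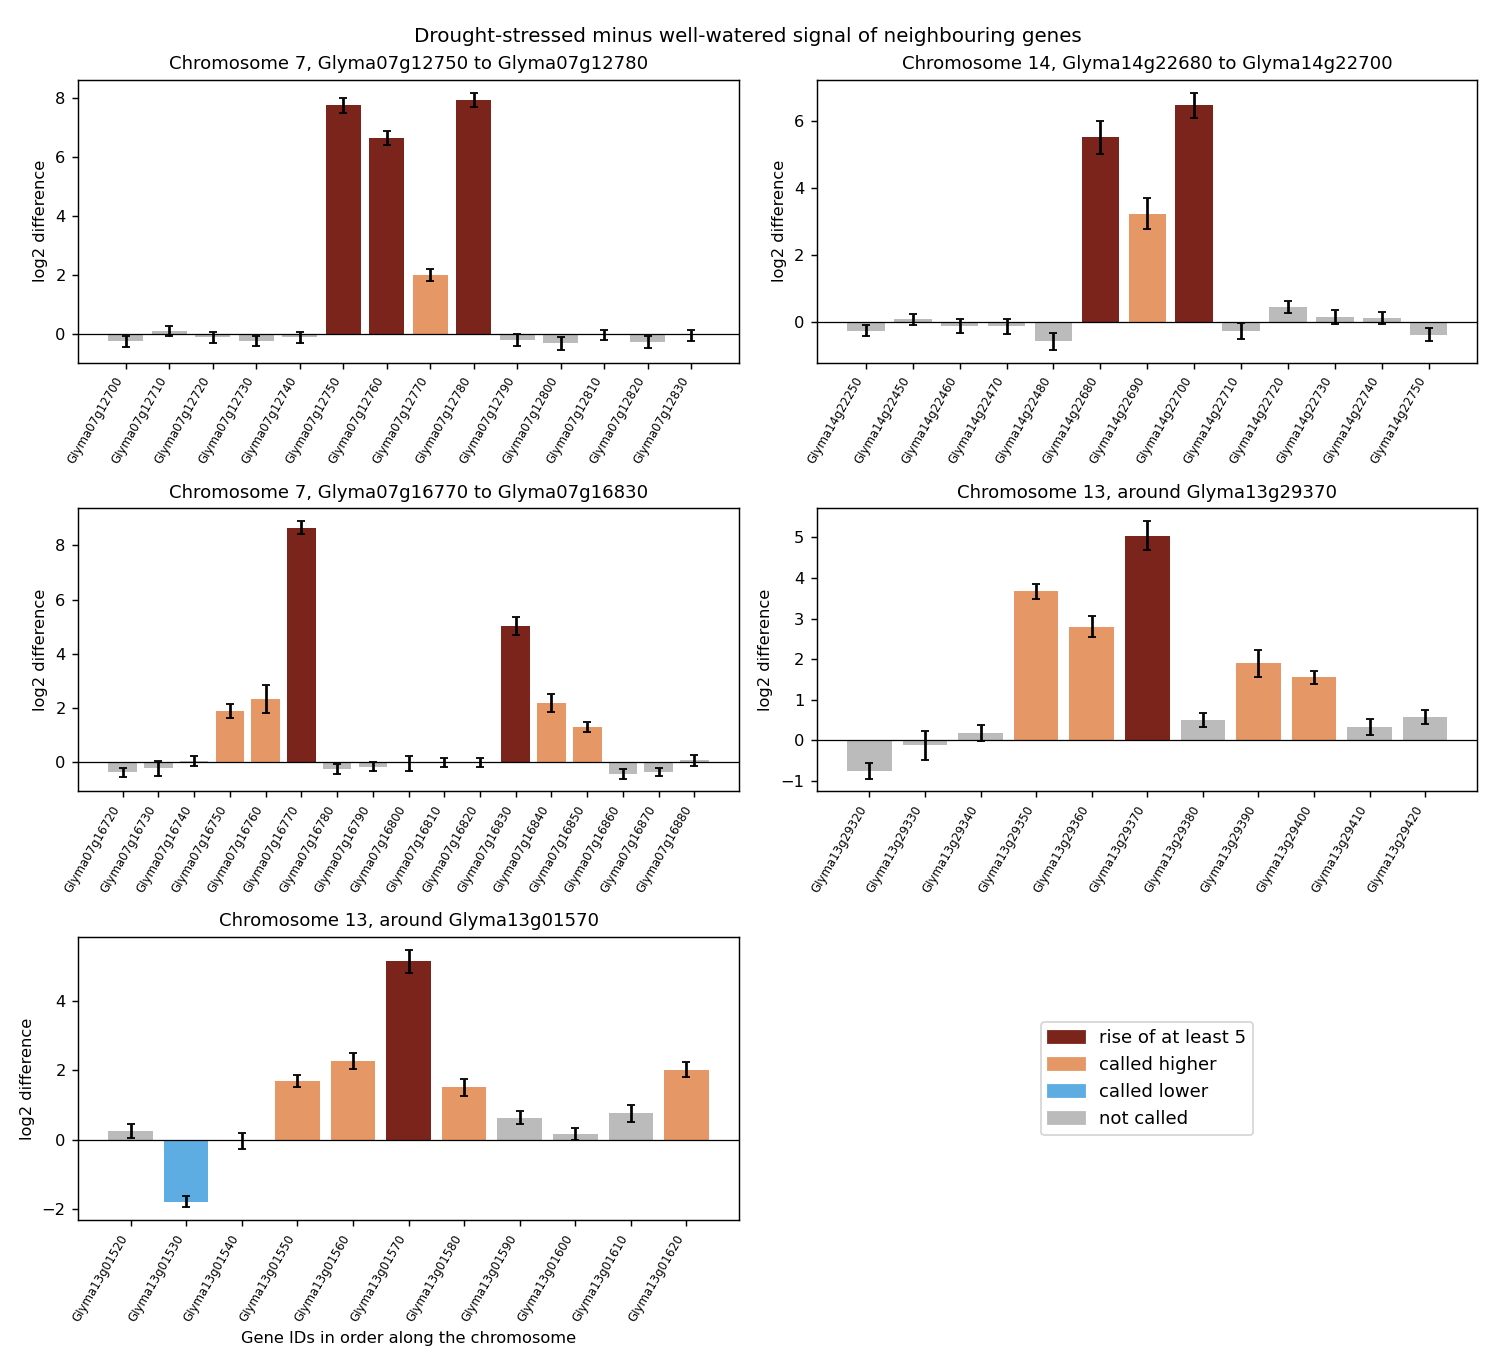
Drought-stressed minus well-watered difference in log2 units (bars, with the standard error from limma) of gene IDs in their order along the chromosome, for 5 stretches that hold 9 of the 64 genes (dark bars), with other genes called higher, called lower or not called in lighter colours. On chromosome 7, Glyma07g12750, Glyma07g12760 and Glyma07g12780 stand at 7.75, 6.65 and 7.93 with Glyma07g12770 between them at 2.02.

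Neighbours that do not themselves belong to the 64 were not used by the rule, so they could be tested. The gene IDs directly before and after the 64 genes numbered 126. By limma, 24 of them (19.05%) were called higher and 2 (1.59%) lower, beside 4.33% and 5.14% of all probes. The median difference of the 126 was 0.17, against -0.05 over all probes. All drought-stressed leaves lay above all well-watered leaves in 34.9% of them, beside 14.4% of the array. Leaving out the 2 neighbours that belong to the 64, Glyma07g12750 and Glyma07g12760, 22 of 124 (17.74%) were called higher. Without those 2, all drought-stressed leaves lay above all well-watered leaves in 33.87%. Leaving out the genes with another of the 64 within 5 places, 20 of 118 neighbours (16.95%) were called higher. The methods' t-test called 14 of the 126 higher, beside 2.73% of all probes, all of them among the 24. Its count without the 2 neighbours that belong to the 64 was not taken.

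The calls were concentrated at the nearest places. Among gene IDs whose closest gene of the 64 was 1 place away, 17.74% were called higher, against 9.84% at 2 places, 9.09% at 3 and 3.33% at 4. Farther away, between 5 and 10 places, the share called higher ran between 2.5% and 6.67%, on both sides of the 4.33% of all probes. Neighbours of probes with smaller rises were also called higher more often than the array as a whole. The share was 9.31% beside called probes rising by 1 to 2, 13.7% for 2 to 3, 12.5% for 3 to 4 and 18 of 163 for 4 to 5. Whether 19.05% differs from these shares was not tested.

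**Figure D4:**
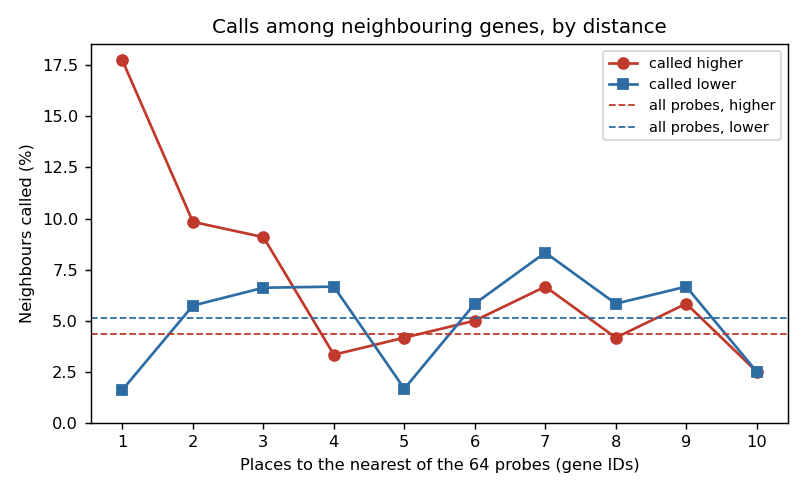
Share of gene IDs called higher (circles) and lower (squares) in drought-stressed leaves, in percent, by the number of places to the nearest of the 64 genes along the chromosome, with the shares over all probes as dashed lines. The share called higher is 17.74% at 1 place and between 2.5% and 6.67% from 4 places on.

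The 24 neighbours called higher stood beside 24 of the 64 genes (37.5%), against 8.37% of all gene IDs on the chromosomes that had such a neighbour. Both neighbours were called for 2 of these, Glyma07g12760 and Glyma13g01570. These counts include Glyma07g12750 and Glyma07g12760, which stand side by side and whose rises the rule required. Glyma07g12750 counts only through Glyma07g12760, and Glyma07g12760 has both neighbours called only through Glyma07g12750. With 5 gene IDs on each side, 59 of 612 neighbours (9.64%) were called higher, or 54 of 607 (8.90%) without those that belong to the 64. Of the 64 genes, 37 (57.8%) had at least 1 neighbour called higher in this window, against 33.0% of all gene IDs on the chromosomes. No neighbour in that window was called in either direction for 14 of the 64 (21.9%), against 40.7% of all gene IDs. The probe numbers of the array fall into 2 ascending runs of gene IDs on each chromosome, and the files do not say what the runs stand for. Of the 24 neighbours, 12 (50.0%) were in the same run as the gene beside them, against 51.75% of all adjacent pairs on the array. Whether neighbouring probes share target sequence was not tested.

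The largest rise among these neighbours outside the 64 was in Glyma16g04200, next to Glyma16g04190. It had 1.82, 2.10 and 2.25 in drought-stressed plants, against -2.15, -1.82 and -2.90 in well-watered plants (difference 4.35, SE 0.26). Glyma12g01450, next to Glyma12g01460, had 2.34, 1.62 and 2.48 in drought-stressed plants, against -1.62, -2.11 and -2.83 in well-watered plants (difference 4.33, SE 0.32). Both neighbours rose by about 1 unit less than the gene beside them. Glyma17g13720, next to Glyma17g13730, had 1.69, 1.81 and 2.63 in drought-stressed plants, against -1.69, -2.10 and -1.95 in well-watered plants (difference 3.96, SE 0.25). Glyma14g22690 and Glyma13g29360, described above, followed at 3.23 and 2.80. The smallest called rise was 1.06 (SE 0.19, limma adjusted p 0.0033) in Glyma05g24430, next to Glyma05g24420, and this call was lost without drought-stressed plant 4 and without well-watered plant 15.

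Both neighbours called lower stood beside a gene with a large rise. Glyma16g02400, next to Glyma16g02390, had -1.0, -0.99 and -1.33 in drought-stressed plants, against 1.30, 0.99 and 1.69 in well-watered plants. Its difference was -2.43 (SE 0.21), whereas Glyma16g02390 had 2.45, 2.84 and 3.37 in drought-stressed plants, against -2.45, -2.61 and -2.54 in well-watered plants (difference 5.42). Glyma19g41540, next to Glyma19g41550, had -0.46, -0.50 and -0.67 in drought-stressed plants, against 0.46, 0.61 and 0.91 in well-watered plants (difference -1.20, SE 0.18, limma adjusted p 0.001). The groups overlapped in neither gene.

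The neighbour of the expansin-like gene Glyma01g41330, Glyma01g41320, is described as similar to LIL3:1 of Arabidopsis, a light-harvesting-like protein of the chloroplast membrane that takes part in chlorophyll synthesis. It had 0.74, 1.67 and 0.16 in drought-stressed plants, against -0.16, -0.16 and -0.84 in well-watered plants. Its difference of 1.24 (SE 0.35, limma adjusted p 0.036) passed the threshold with uneven drought-stressed leaves, and the call was lost when drought-stressed plant 1 or 2 or any one of the 3 well-watered plants was left out.

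The study's table of hormone-related genes, which was chosen on these same samples and so is no independent evidence of a direction, described 2 more genes within 5 places of the 64. Glyma07g03810, 3 places from Glyma07g03780, is described as similar to GA3OX1 of Arabidopsis, the enzyme that makes bioactive gibberellin. It had -1.90, -0.95 and -2.50 in drought-stressed plants, against 1.39, 0.95 and 1.85 in well-watered plants (difference -3.18, SE 0.36, limma adjusted p 1.9e-04). Glyma16g02350, 4 places from Glyma16g02390, is described as similar to an auxin-responsive protein. It had -1.24, -1.22 and -1.32 in drought-stressed plants, against 1.22, 1.51 and 1.49 in well-watered plants (difference -2.67, SE 0.16, limma adjusted p 3.5e-06). Both fell in drought-stressed leaves, with no overlap between the groups, beside genes of the 64 that had differences of 6.72 and 5.42.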

How the data were processed

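RNA of trifoliate 4 from 3 drought-stressed and 3 well-watered soybean plants, treated from V6 on, was measured on Affymetrix soybean arrays, 1 per plant. Groups were taken from the labels. The authors deposited log2 values, made by RMA summarisation in Affymetrix Expression Console without normalization and a shift to each array's upper quartile in GeneSpring. Every probe's deposited log2 values are centred on 0, their median over the 6 arrays. A second deposited table holds the authors' own comparison, as a score (signed fold) and p-values. None of these was used. The other deposited column used was the gene ID paired with each probe. The arrays give no read depth, and their number limits the precision.

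The groups were compared over all 66195 probes (66184 gene IDs) by the moderated test of limma 3.58.1 (R 4.3.3), without a filter or block. Calls needed a fold of 2 or more with a Benjamini-Hochberg adjusted p under 0.05. Residual degrees of freedom were 4 and prior ones 5.93, and differences had a median standard error of 0.19. With 3 plants a group, an exact permutation test reaches at best a p of 0.1. The code was tested on simulated data. Counting and figures used Python 3.11.15 with pandas 2.3.3 and matplotlib 3.10.9. Neighbours were the nearest gene IDs by number on the same chromosome.

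The members, lists and rules were chosen with earlier results of these data known. Named were the 25 largest differences, genes with another of the 64 within 5 places, the 3 largest and 3 smallest SDs per group, the 5 probes on each side of the threshold, the 5 largest called neighbours in each direction, and, in a list that holds one of the 64, the largest rise and fall. Genes shown beyond that, such as those around Glyma07g16830 and on chromosome 13 and the neighbours of described genes, were picked with their values in view. The alternatives were 2 other scalings, the methods' t-test, array weights, a filter on spread, other thresholds and distances, and leaving out each plant. No gene ID matched the reference gene table used, and descriptions covered 2 of the 64, so protein relatives and promoters were not analysed here, and no sequence is shown. Keyword lists were counted among the described genes of chromosome 1, and the list that holds one of the 64 is given.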

Additional observations from a re-analysis of the deposited data

How the results depend on the processing

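The methods' t-test called 1808 probes higher and 2000 lower, against 2864 and 3401 by limma, and 14 of the neighbours higher, against 24. Both neighbour counts were taken over all neighbours, including those that belong to the 64. Counting 2 places on each side gave 39 neighbours higher and 9 lower, and 5 places gave 59 and 27. Without neighbours that belong to the 64, those called higher were 34 and 54. Plant 4 was the highest drought-stressed leaf for 18 of the 64 probes after quantile normalization, against 50. For these changes the cause was not tested, apart from the distances, which take in more genes. Quantile normalization evens out the extreme values, where the 64 probes lie, so it cannot decide the order of the plants. Leaving out 1 plant at a time gave 2665 to 2937 probes higher and 3086 to 3501 lower, 57 to 71 probes past the threshold of 5, 21 to 24 neighbours higher and 2 to 3 lower. Of the 24 neighbours called higher, 21 remained without drought-stressed plant 4 and 21 without well-watered plant 15, and the calls lost under some left-out plant were Glyma01g41320, Glyma04g08750, Glyma05g23150, Glyma05g24430 and Glyma15g07470. Of 640 values of the 64 probes under the alternatives, 610 moved by less than the spread between plants and 30 by more. Their direction is fixed by the rule. No paired analysis was possible because the plant numbers 1, 2 and 4 share none with 14, 15 and 16. Alternatives on protein relatives and promoters were not run. The values hold no level, so a rise from no signal and a rise from a high signal look alike. With 3 leaves a group each SD is itself imprecise.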
